A study of Mus musculus with 2 samples.

Results

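The genes described here encode matrix metalloproteinases (Mmp), their tissue inhibitors (Timp), and the related families of membrane-anchored (Adam) and secreted, matrix-bound (Adamts) metalloproteinases, in distal colon with and without a transgene for the cytokine interleukin-9 (IL-9). Members were the probe sets whose annotation gave exactly 1 gene symbol, made of Mmp, Timp, Adam or Adamts followed directly by a digit, with 1 matrilysin gene left out by that rule. This gave 82 of 22626 probe sets and 53 of 12393 genes: 17 Mmp genes, 4 Timp genes, 25 Adam genes and 7 Adamts genes. The wild-type group was FVB, an inbred strain whose name the series design spells TVB. The other group was IL-9 transgenic, titled Tg5. All mice were bred free of specific pathogens, and each group was 1 pool of RNA from pieces of distal colon of 4 mice, read on 1 Affymetrix array. The promoter that drives the transgene, the cells that make IL-9, and the age and sex of the mice are not given in the sources used here. With 1 pool per group there is no spread between mice, so no test was run, and every ratio below compares 2 pools.

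Matrix metalloproteinases are zinc-dependent enzymes made as inactive precursors that cleave collagens, gelatin, elastin and other matrix proteins. ADAM proteins sit in the cell membrane, where those with an active site cut growth factor precursors, receptors and adhesion molecules from the cell surface, while others act in cell contact, among them many of the sperm surface. ADAMTS proteins are secreted, bind matrix and cut proteoglycans or process collagen and fibrillin fibres. TIMPs block the active site of these enzymes, and in the gut the balance of both is known for its part in inflammation, ulcer repair and turnover of the tissue below the epithelium.

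Several Mmp genes stand side by side on chromosome 9, and many of them are known targets of AP-1, the Fos and Jun transcription factor. The heptamer TGAGTCA and its reverse complement TGACTCA were searched in RefSeq promoter windows of 300 bases on GRCm38.p6 (250 before and 50 after the start of transcription), which were at hand for 29 of the 53 genes. The motif lay in the windows of 6 of 12 Mmp genes, namely Mmp1a, Mmp1b, Mmp3, Mmp10, Mmp12 and Mmp13, from 35 to 93 bases before the start. The window of each of these 6 genes comes from the chromosome 9 cluster, where Mmp8 and Mmp20 had windows without the motif. Outside the cluster only 4 Mmp genes had a window, Mmp11, Mmp14, Mmp23 and Mmp24, and no match was found in any. Mmp2, Mmp9, Mmp16, Mmp17 and Mmp19 had no window and were not searched. Of the other families, Adam19 and Adam1b each had a window with the motif, so 8 of 29 members (27.6%) held it, against 5.95% of all 27025 genes with a window. The 150 bases before the start are shown for 3 genes of the cluster and for Mmp14, the member with the largest ratio, to set a promoter with the motif beside one without it. Capitals mark the motif, and each sequence runs 5′ to 3′ on the plus strand, which is the strand of the gene. The Mmp3 stretch is chr9:7445672-7445821, the Mmp10 stretch chr9:7502192-7502341, the Mmp13 stretch chr9:7272364-7272513 and the Mmp14 stretch chr14:54431448-54431597.
Mmp3: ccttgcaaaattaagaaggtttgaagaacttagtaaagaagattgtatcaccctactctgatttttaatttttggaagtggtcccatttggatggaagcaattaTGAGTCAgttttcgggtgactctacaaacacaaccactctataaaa
Mmp10: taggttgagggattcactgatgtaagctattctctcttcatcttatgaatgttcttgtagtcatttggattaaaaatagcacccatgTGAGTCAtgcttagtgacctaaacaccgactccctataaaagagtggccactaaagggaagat
Mmp13: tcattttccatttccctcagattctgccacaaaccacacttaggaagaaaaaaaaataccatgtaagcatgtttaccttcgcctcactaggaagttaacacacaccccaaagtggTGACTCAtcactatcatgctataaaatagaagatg
Mmp14: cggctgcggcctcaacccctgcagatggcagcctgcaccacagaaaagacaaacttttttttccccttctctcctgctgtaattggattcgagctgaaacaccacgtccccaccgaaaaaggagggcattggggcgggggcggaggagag

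**Figure D1:**
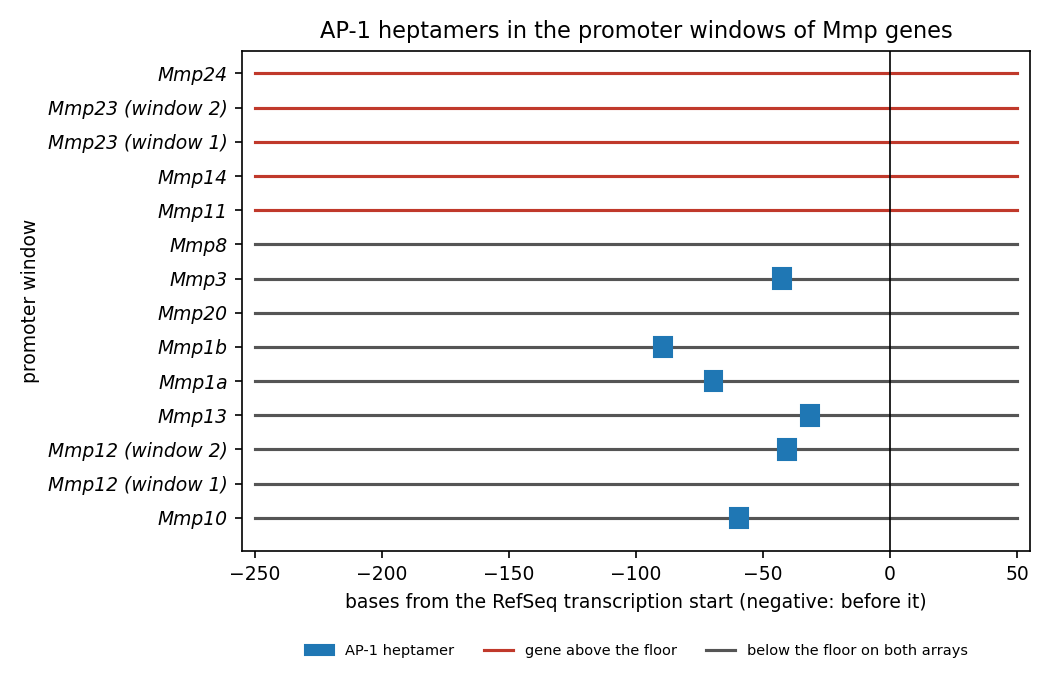
Positions of the AP-1 heptamer (blue boxes) in the promoter windows of the 12 Mmp genes that had one, in bases from the RefSeq start of transcription; genes with several starts have several windows. The 6 genes with the motif are all drawn in grey, the colour of genes below the intensity floor on both arrays, and the genes drawn in red have none in these windows.

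The deposited intensities are linear, and values under 19.8, the 40th percentile of both arrays, were set to this floor before a ratio was taken. A gene was called measured when its brightest probe set exceeded the floor on at least 1 array, and where 1 array was at the floor the ratio is a bound. The arrays had median intensities of 34.0 (wild type) and 34.2 (transgenic). The median log2 ratio of all 8346 measured genes was 0.04, and the middle 95% ran from -0.61 to 0.70. Probe sets of the same gene differed with a pooled SD of 0.28 in log2 ratio, a technical measure over 2847 genes that holds no spread between mice. Of 9 colonocyte marker genes 9 were measured on both arrays, with summed intensities of 15611 and 14970 in the wild-type and transgenic pools. Marker genes of pancreatic acinar cells, a tissue that is not colon, summed to 30795 in the wild-type pool and 1682 in the transgenic pool, and for 12 of 12 the transgenic pool was lower by 2-fold or more. The part of these cells in the ratios below was not tested.

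Most members did not exceed the floor in either pool, and of the 16 that exceeded it in both none differed by 2-fold. For the 5 members above it in wild type alone, Mmp9, Mmp11, Mmp17, Mmp24 and Adamts5, the ratio is a bound, so a difference of 2-fold or more is not excluded. Of the 53 genes 21 were measured (39.6%, against 67.3% of all genes): 7 of 17 Mmp, 4 of 4 Timp, 6 of 25 Adam and 4 of 7 Adamts genes. With bounds counted at their value, 0 were at least 2-fold higher, against a background of 0.767% of all measured genes, and 0 at least 2-fold lower, against 0.611%. At the smaller size of 1.5-fold, 1 member was higher (Mmp14; background 4.09%) and 1 was lower (Mmp9; background 2.85%). Signs were split, with 10 log2 ratios above 0 (background 56%) and 11 below 0 (background 44%), and the median was -0.02. By family the median of the measured genes was -0.06 for Mmp, 0.24 for Timp, -0.11 for Adam and 0.03 for Adamts, values that describe only the members bright enough to be measured. Of the 16 members above the floor on both arrays, 8 had log2 ratios no larger than the pooled SD between probe sets, against 69.8% of all genes. No member was above the floor in the transgenic pool alone, and 5 were in the wild-type pool alone. Over all 8346 measured genes these counts were 274 and 302. The counts depend on the floor. With the 20th percentile as floor 39 members were measured, of which 4 were at least 2-fold lower and 1 at least 2-fold higher. Over all 10809 genes measured with that floor, 258 were at least 2-fold lower and 202 at least 2-fold higher.

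**Figure D2:**
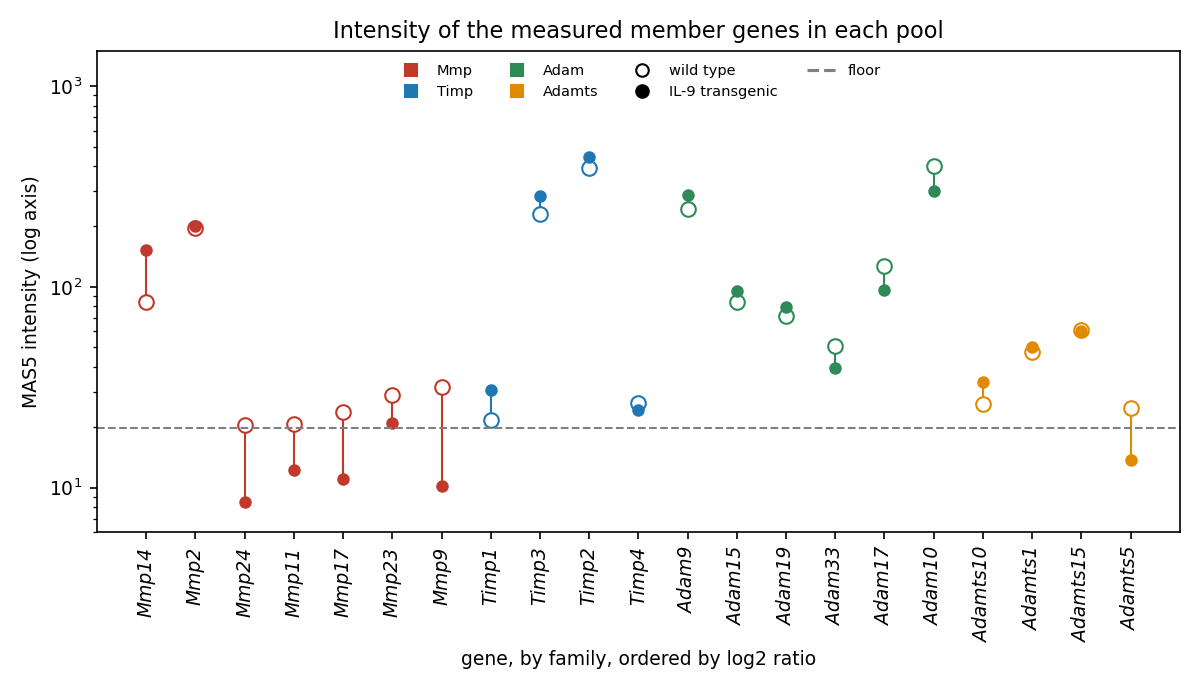
Intensity (log axis) of the 21 measured member genes in the wild-type pool (open circles) and the IL-9 transgenic pool (filled circles), 1 array each, coloured by family; the dashed line is the floor of 19.8. Mmp14 has the widest gap among genes above the floor in both pools, while the other wide gaps belong to Mmp genes and Adamts5, which lie under the floor in the transgenic pool.

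Mmp14 encodes a collagenase anchored in the cell membrane (MT1-MMP) that also activates the precursor of MMP2. Its brighter probe set (1448383_at) gave 84.2 in the wild-type pool and 153 in the transgenic pool, 1.82-fold higher, a log2 ratio of 0.86. The other probe set (1416572_at) had 47.5 and 72.9, 1.54-fold higher, a log2 ratio of 0.62. Both log2 ratios were thus more than 2 times the pooled SD between probe sets of a gene. That SD is a technical measure that holds no spread between mice, so this is not a test. Of the 8346 measured genes 108 (1.29%) had a log2 ratio at least as high as that of Mmp14, which was 0.74 to 0.86 over all 8 alternatives tried.

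Summed markers of cell types that can make Mmp14 differed between the pools to unlike extents. Summed intensities of 9 endothelial markers were 344 and 504 in the wild-type and transgenic pools, with Cdh5 and Tie1 below the floor on both arrays. Those of 12 macrophage and dendritic cell markers were 1815 and 2126, with Itgam below the floor and Adgre1 lower in the transgenic pool. Those of 11 fibroblast and stroma markers were 6488 and 6603, a ratio of 1.02. Smooth muscle markers, 9 genes, went the other way, at 10401 and 10114. The 11 mast cell markers summed to 267 and 3392, with Ms4a2 and Hdc below the floor on both arrays. Whether more cells of a type or more RNA per cell lie behind a difference cannot be told apart in bulk RNA, and the part of these cells in the Mmp14 ratio was not tested.

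The partners of MMP14 in the activation of MMP2 had smaller ratios. Mmp2, the gelatinase made by stromal cells, had intensities of 196 and 202 by its brighter probe set, a log2 ratio of 0.04, and 177 and 205 by the other, 0.22. Timp2, the inhibitor that links MMP14 to the MMP2 precursor, had 390 and 443 by its brightest probe set, a log2 ratio of 0.19. The 5 of its probe sets that exceeded the floor in both pools did not agree in sign and ranged from -0.62 to 0.24, and their mean was -0.03. Reck, a membrane-bound inhibitor of MMP14 and MMP9, had 75.1 and 66.0, a log2 ratio of -0.19. No probe set of Mmp2, Timp2 or Reck was thus higher in the transgenic pool by as much as either probe set of Mmp14, and the lowest Timp2 probe set (82.7 and 53.8) was 1.54-fold lower.

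Mmp9, the gelatinase best known from neutrophils and macrophages, was the member with the largest difference in the lower direction. Its probe set 1416298_at had 31.6 in wild type and 10.2 in transgenic colon, where it was under the floor, so it was at least 1.59-fold lower, and its log2 ratio was -1.63 when the floor was the 20th percentile. The second probe set (1448291_at) was under the floor on both arrays, at 1.96 and 2.77. None of 9 neutrophil markers, S100a8 and S100a9 among them, exceeded the floor on either array, with sums of 35 and 42.

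The membrane-anchored members other than Mmp14 were faint. Mmp17 had 23.9 and 11.0 and was at least 1.21-fold lower, and Mmp24 had 20.6 and 8.51, at least 1.04-fold lower. Mmp23, a short form whose anchor is at its amino end, had 28.9 and 21.0, 1.38-fold lower, and its fainter probe set (20.5 and 7.35) was at least 1.03-fold lower. Mmp11 (stromelysin-3), an enzyme of fibroblasts that leaves the cell already active, had 20.7 and 12.2, at least 1.05-fold lower. All 4 genes were higher in wild type but close to the floor there. The bounds of Mmp17, Mmp24 and Mmp11 depend on the floor, and with the 20th percentile in its place their log2 ratios were -1.12, -1.27 and -0.76.

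The Mmp members that lie on chromosome 9, all secreted enzymes, stayed under the floor in both pools. This held for 8 of 8: the collagenase genes Mmp1a, Mmp1b, Mmp8 and Mmp13, the stromelysin genes Mmp3 and Mmp10, the macrophage elastase gene Mmp12 and the enamel protease gene Mmp20. Their intensities ran from 0.403 to 14.4, and no ratio is given. These include the 6 Mmp genes whose promoter windows hold the AP-1 heptamer shown above. Mmp16 and Mmp19, which lie on other chromosomes, were below the floor as well. Mmp27, which stands between Mmp8 and Mmp20 in gene order, is not among the members, so nothing is said of it here.

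Of the 4 inhibitor genes 3 had positive log2 ratios, against 56% of all measured genes, and with the mean of all probe sets in place of the brightest one Timp2 (-0.03) joined Timp4 below 0. Timp3 was the most even across probe sets. Timp3, the inhibitor that stays bound to matrix and also blocks ADAM17 and the ADAMTS enzymes, had 231 in the wild-type and 283 in the transgenic pool by its brightest probe set. Its other probe sets had 197 and 235, 84.6 and 104, and 63.7 and 74.8. All 4 were higher in the transgenic pool, with log2 ratios from 0.23 to 0.30 and an SD of 0.03. Among 946 genes with 3 or more probe sets that exceeded the floor in both pools, 14.7% had only positive log2 ratios. Another 15.9% had only negative ones. The share for genes with 4 such probe sets, the number of Timp3, was not taken.

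Timp1, the inducible inhibitor that rises in many inflamed tissues, had 21.7 and 30.7 by its single probe set, 1.41-fold higher, a log2 ratio of 0.50. Both values lie close to the floor, and 6.15% of measured genes had a ratio at least as high. Timp4 had 26.4 and 24.4, a log2 ratio of -0.12, and 0.02 by its other probe set. The 4 inhibitors had a median log2 ratio of 0.24, against 0.04 over all measured genes.

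**Figure D3:**
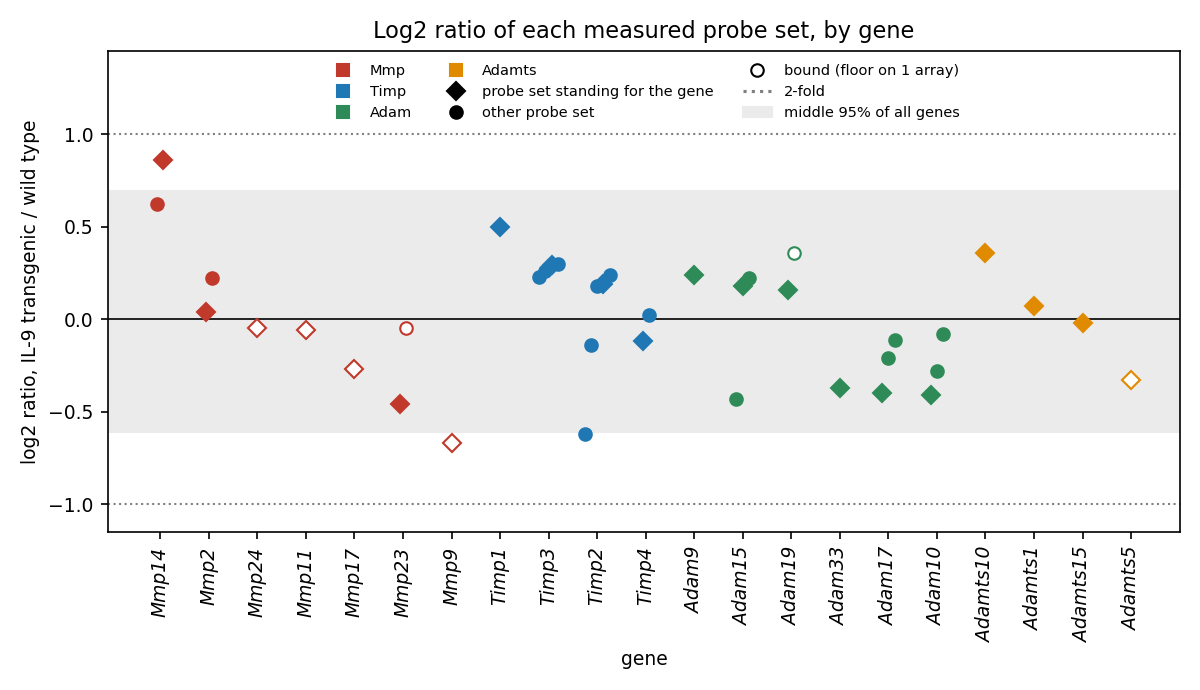
Log2 ratio (IL-9 transgenic over wild type) of each of the 39 member probe sets above the floor on at least 1 array, grouped by gene; diamonds are the probe sets that stand for their gene, open symbols are bounds, dotted lines mark 2-fold and the grey band is the middle 95% of all measured genes. Both Mmp14 points lie above 0.6, the 4 Timp3 points lie together between 0.23 and 0.30, the 6 points of Adam10 and Adam17 are all below 0, and the Timp2 and Adam15 points fall on both sides of 0.

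Adam10 and Adam17 encode the main sheddases of the cell surface, ADAM10 for Notch receptors and E-cadherin and ADAM17 for TNF and ligands of the EGF receptor. Adam10 had 400 in the wild-type and 300 in the transgenic pool by its brightest probe set, 1.33-fold lower, and 137 and 113, and 84.6 and 79.9, by the others. Its log2 ratios were -0.41, -0.28 and -0.08. Adam17 had 128 and 96.6 by its brightest probe set, 1.32-fold lower, and 63.6 and 59.1, and 36.5 and 31.6, by the others, with log2 ratios of -0.40, -0.11 and -0.21. All 6 probe sets of both genes were lower in the transgenic pool, and for each gene the brightest probe set gave the largest difference. Of 946 genes with 3 or more probe sets above the floor in both pools, 15.9% likewise had only negative log2 ratios. The mean log2 ratio over the probe sets of each gene was -0.26 for Adam10 and -0.24 for Adam17. The SD between the 3 probe sets was 0.17 and 0.15. Both means were smaller in size than the pooled SD of 0.28, but that SD describes single probe sets and not a mean of 3. Among all measured genes 6.60% had a log2 ratio at least as low as that of Adam10 and 7.03% one at least as low as that of Adam17.

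The other measured Adam genes went in both directions. Adam9, which encodes a widely made protease, had 244 and 288, 1.18-fold higher. Adam19 had 71.2 and 79.4, 1.12-fold higher, and its fainter probe set (12.3 and 25.4) was at least 1.28-fold higher. Adam33, a gene of mesenchymal cells, had 50.6 and 39.2, 1.29-fold lower. Adam15, which encodes an adhesion protein with a protease site, had 84.1 and 95.1 by its brightest probe set, a log2 ratio of 0.18. The others that exceeded the floor in both pools had log2 ratios of 0.22 and -0.43, so the sign depends on the probe set, and some of these probe sets can bind several transcripts.

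The remaining 19 Adam genes were under the floor on both arrays. They include 13 of 13 genes known from the male reproductive tract, Adam1a, Adam1b, Adam2, Adam3, Adam4, Adam5, Adam7, Adam18, Adam21, Adam24, Adam25, Adam26a and Adam34. The 8 testis and sperm markers were likewise all below the floor, with sums of 35 and 26. Adam11, Adam22 and Adam23, adhesion proteins of the nervous system without a protease site, were also below it. So were Adam8 (15.2 and 17.4), a gene of myeloid cells, Adam12 and Adam28. With the 20th percentile as floor, where 39 members were measured, Adam12 (15.2 and 0.314) was among the 4 members at least 2-fold lower. The others were Mmp9, Mmp17 and Mmp24, and Adam23 (2.90 and 15.5) was the 1 member at least 2-fold higher.

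Of the Adamts genes, those that cut the large proteoglycans versican and aggrecan had ratios near 0 or lower. Adamts1 had 47.5 and 49.9, a log2 ratio of 0.07, and Adamts15 had 61.3 and 60.6, a log2 ratio of -0.02. Adamts5, which neighbours Adamts1 on chromosome 16, had 24.9 and 13.7 and was at least 1.26-fold lower (a log2 ratio of -0.86 when the floor was the 20th percentile), and its other probe set was under the floor. Adamts4 and Adamts8, the remaining proteoglycan-cutting members, were under the floor on both arrays, as was Adamts7. Adamts10, which binds fibrillin, had 26.0 and 33.5, 1.29-fold higher.

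**Figure D4:**
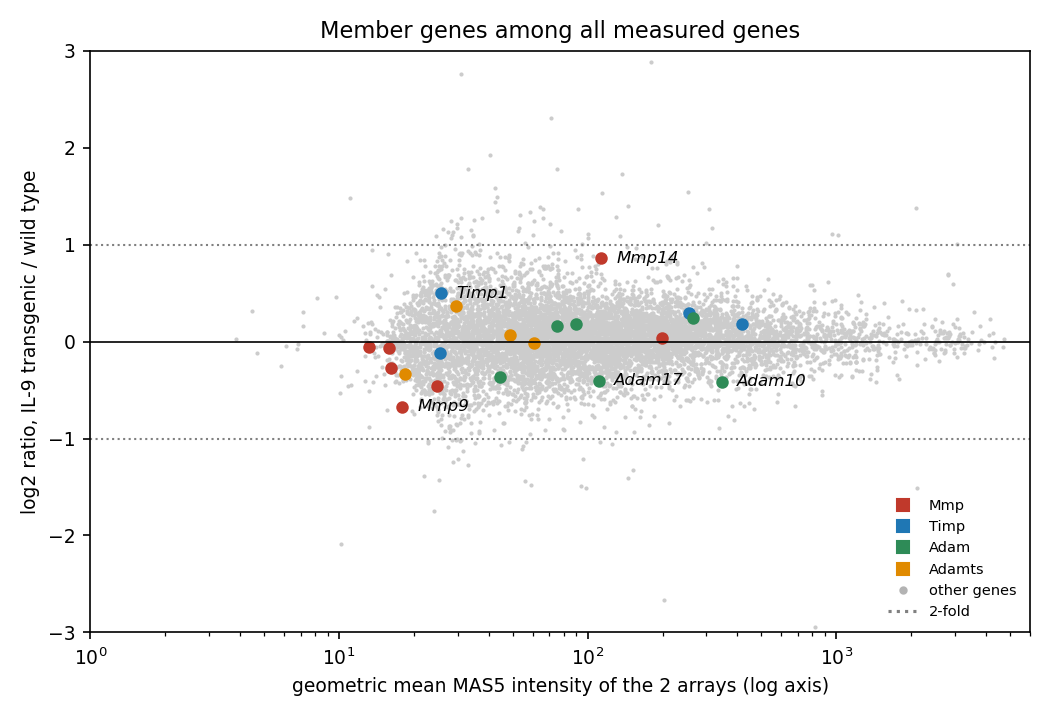
Log2 ratio (IL-9 transgenic over wild type) against the geometric mean intensity (log axis) of all 8346 measured genes, 1 point per gene, with member genes coloured by family; 23 other genes lie outside the axes. With the floor applied, members lie within the dotted 2-fold lines, with Mmp14 nearest to the upper one and Mmp9, at the floor in the transgenic pool, nearest to the lower one.

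Genes that act with these families were mostly within 1.5-fold, with a mixed list of plasminogen system and other serine protease genes having the largest share beyond it. This list joined the plasminogen system, which activates several MMP precursors, with genes of hepatocyte growth factor activation and epithelial serine proteases. Of its 13 genes 6 were measured, 0 reached 2-fold and 2 of the 6 were at least 1.5-fold higher, against 4.09% of all measured genes. These were Plaur, the urokinase receptor (24.9 and 40.7, 1.64-fold), and Hgfac, the activator of hepatocyte growth factor (147 and 229, 1.56-fold). Plat, tissue plasminogen activator, and Spint1, an inhibitor of epithelial serine proteases, had log2 ratios of -0.19 and 0.15. Plaur and Plat, the measured genes of the plasminogen system itself, thus went in opposite directions. Of 17 measured activators, inhibitors and clearance genes of metalloproteinases, 0 reached 1.5-fold in either direction and the median was 0.02. The largest were Tspan14 (0.42) and Tspan33 (0.36), tetraspanins that guide ADAM10 to the cell surface, Lcn2, which binds MMP9 (16.7 and 25.7, at least 1.30-fold higher), and Rhbdf1, a partner of ADAM17 (0.31). The 3 other measured probe sets of Tspan33 ranged from -0.02 to 0.37.

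Among known substrates of ADAM10 and ADAM17, 19 of 25 genes were measured and 0 reached 2-fold. Of the 19, 1 was at least 1.5-fold higher, near the share of 4.09% over all measured genes. That gene was Icam1, an adhesion molecule for leukocytes (26.3 and 45.2, 1.72-fold). Tnfrsf1b, a TNF receptor, had a log2 ratio of 0.55 and Cdh1, E-cadherin, -0.46 (798 and 579). Kit, the receptor of mast cells and interstitial cells of Cajal, had 0.45, and 0.70 by its other probe set. The list's median was 0.08.

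Among matrix substrates 18 of 23 were measured, with a median of -0.02, and 1 of the 18 was at least 2-fold higher, against 0.767% of all measured genes: Vwf, an endothelial clotting factor, at 25.9 and 52.0. Vwf passed by a narrow margin, with a log2 ratio of 1.01. It no longer passed with median scaling (just under 2-fold), with no floor (0.99) or with the 60th percentile as floor, which it did not exceed on either array. It is also one of the endothelial markers summed above. Lum and Hspg2, both proteoglycan genes, and Lama5, a basement membrane laminin, had log2 ratios of -0.49, -0.47 and -0.32, but the other probe sets of Hspg2 and Lama5 were positive. Of 6 measured relatives from other families 0 reached 1.5-fold. Bmp1, which trims procollagens, had 0.55, and Adamdec1, a soluble ADAM of gut macrophages, 0.48 (1033 and 1445). Ece1, endothelin-converting enzyme, had 0.46, and 0.08 by its other measured probe set. The fourth, Adamtsl4, had -0.04.

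**Figure D5:**
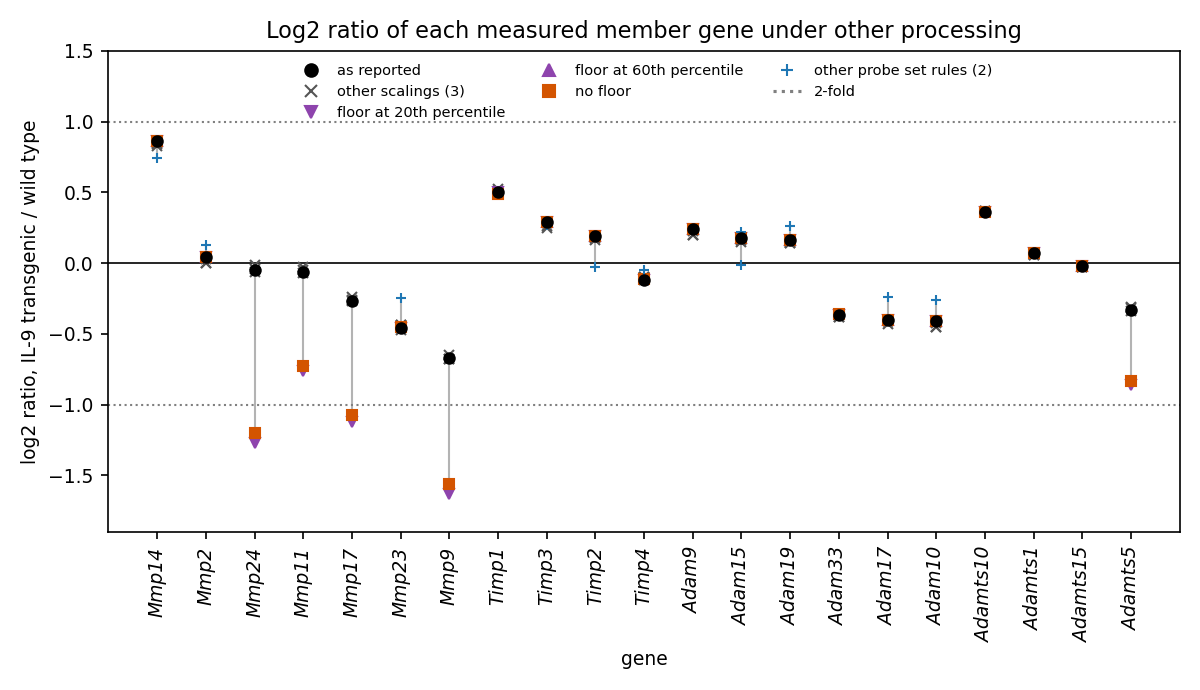
Log2 ratio of each of the 21 measured member genes as reported (black) and under the other scalings, floors and probe set rules that gave a value (coloured marks), with dotted lines at 2-fold. Mmp14 stays between 0.74 and 0.86, whereas Mmp9, Mmp17, Mmp24, Mmp11 and Adamts5, which lie under the floor in the transgenic pool, move down when the floor is lowered or left out.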

How the data were processed

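Colon RNA of 2 pools, each from 4 mice, was read on 1 array per group. The deposited value table holds 1 linear intensity per probe set and array, which per the submitters' processing notes is the MAS5 signal (version not given in the sources used here). Of 22690 probe sets 64 controls were left out, and 20380 had 1 gene symbol. All 82 member probe sets had a gene ID in the RefSeq table of GRCm38.p6, used for names and gene order. A further probe set that lists a member beside another gene was left out. Ratios were taken after the floor, with no further scaling, and each gene was represented by its brightest probe set (mean of both arrays). Every measured member was to be named, and in each list of partner genes the 4 with the largest ratios. The members and lists were chosen with earlier results of these data known, and the roles, the printed promoters and the one-sign share were chosen after values were seen. The number of arrays limits the precision. The alternatives were median scaling, quantile normalization, loess (span 0.3), floors at the 20th and 60th percentiles, no floor with a pseudocount of 0.735, the mean of all probe sets, and leaving out probe sets that can bind several transcripts. The procedure was tested on simulated arrays with 200 changed genes, all well above the floor and changed by more than 2-fold. Recovery of smaller differences or of changes in faint genes was not tested. A planned search for catalytic motifs in proteins was not run. Python 3.11.15 and pandas 2.3.3 were used.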

Additional observations from a re-analysis of the deposited data

How the results depend on the processing

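The count of members at least 2-fold higher was 1 when the floor was the 20th percentile, against 0 as reported. The count at least 2-fold lower was 4 with that floor and 3 with no floor, against 0 as reported. With the 20th percentile as floor 39 members and 10809 genes were measured, and 202 of all genes were at least 2-fold higher and 258 lower. With no floor 21 members and 8346 genes were measured, and 111 of all genes were at least 2-fold higher and 93 lower. The count at least 1.5-fold higher was 2 with the floor at the 20th percentile, against 7.09% of all measured genes. The count at least 1.5-fold lower was 10 with that floor, 5 with no floor and 0 with a floor at the 60th percentile, where 10 members were measured. Under these settings, in the same order, 7.75%, 4.04% and 1.59% of all measured genes were at least 1.5-fold lower. The median log2 ratio of the Mmp genes was 0.45 with the floor at the 60th percentile, the opposite sign to the -0.06 reported, because only Mmp2 and Mmp14 are measured there, and -0.73 with no floor. The medians of the Timp, Adam and Adamts genes moved by less than 0.28 under each alternative. The Adam median still turned sign, from -0.11 to 0.16 with the floor at the 60th percentile and to the same value when multi-transcript probe sets were left out, and the Adamts median from 0.03 to -0.21 and -0.02 with the floors at the 20th and 60th percentiles. Of 156 values of single genes under the 8 alternatives, 146 moved by no more than 0.28. The other 10 were Mmp9, Mmp11, Mmp17, Mmp24 and Adamts5, each with no floor and with the 20th percentile as floor, all further below 0. Adam15 and Timp2 turned sign when all probe sets were averaged, to -0.01 and -0.03. No alternative leaves out a replicate, since each group has 1 array. No paired analysis was possible because each group has 1 sample. The 20th and 60th percentiles are intensities of 5.58 and 55.1.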
